A study of Mus musculus with 2 samples.

Results

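Oligodendrocytes wrap axons in myelin, a stack of membrane that is rich in cholesterol and galactolipids. They arise from dividing precursors marked by Pdgfra and Cspg4, pass through a committed Gpr17 and Bmp4 stage and a newly formed Enpp6 stage, and then switch on myelin genes such as Mbp and Mog. The step between the newly formed and the myelinating cell is short, and it is when the processes settle on axons and the sheath is laid down. The cells described here were taken from that step in the ventral parafacial region of the mouse medulla, an area best known for the neurons that adjust breathing to carbon dioxide.

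Early myelin-forming oligodendrocytes were selected by their transcripts. Barcodes with at least 800 genes, at most 50 hemoglobin UMIs (unique molecular identifiers, each standing for 1 captured RNA molecule) and at most 20% mitochondrial UMIs were kept. A kept barcode was a member if it held at least 3 UMIs of the myelin genes Mog and Mag together, at least 4 UMIs of Tmem2, Rras2, Cnksr3 and Fam107b together, and at most 1 UMI of the later genes Opalin, Klk6 and Hapln2. It could hold at most 2 UMIs of the microglial and endothelial genes C1qa, C1qb, Cldn5 and Flt1 and had to be at 0 for the neuronal genes Slc32a1 and Slc17a6. The rule found 436 members among 12395 kept barcodes.

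The tissue came from C57BL/6J mice that were 10 days old, in 2 single-cell libraries. The untreated library (batch 1) pooled 8 mice, 4 male and 4 female, and the 4OH-tamoxifen library (batch 2) pooled another 8, also 4 male and 4 female, given 0.2 mg daily for 3 days. The mice were wild type (WT in the labels of the untreated library), with no transgene or Cre allele named. Treatment, batch and mice therefore cannot be told apart, and a difference between the conditions could not be tested. Each condition had 1 library, its cells are not replicates, and the groups were cut from the same counts that are described, so no p-value is given. Intervals are exact 95% intervals that cover counting error only. Levels are UMIs summed over a group's cells and scaled to a total of 1000000 (CPM), and paired values are given for the untreated library first and the 4OH-tamoxifen library second.

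The untreated library held 89 members among 3345 kept barcodes (2.66%, 2.14 to 3.26%) and the 4OH-tamoxifen library 347 among 9050 (3.83%, 3.45 to 4.25%). The members were deep for their libraries, with medians of 8560 and 6486 UMIs and 2978 and 2434 genes per cell, against 3632 and 2466 UMIs over all kept barcodes. The rule sets fixed UMI minimums, and how far depth sets these shares was not tested. The median mitochondrial share was 5.48% and 5.01%. The libraries had 40 cell barcodes in common, of which 0 were members in both and 2 were members in 1 of them. A doublet caller marked 0 and 15 members, but it marked 0.159% and 5.31% of all barcodes, so the first count may miss doublets and the 2 cannot be compared.

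How many of the 4 genes of the rule each member held is given as a description, since their sum chose the members. Of the 89 untreated members 50 held all 4 of Tmem2, Rras2, Cnksr3 and Fam107b and 2 held 1 of them, and of the 347 members of the 4OH-tamoxifen library 208 held all 4 and 6 held 1. The summed count of the 4 genes had a median of 18 UMIs in both libraries, with highest values of 146 and 67. At the edge of the rule, 5 and 38 members had a sum of exactly 4, and 25 and 46 barcodes that met every other condition had a sum of 3 and stayed outside. Tcf7l2, a transcription factor of differentiating oligodendrocytes, stood at 420.3 and 1152 CPM in the cells just inside and at 1045 and 950.4 CPM in those just outside, so the order across this edge was not the same in the 2 libraries. A further 29 and 73 barcodes were outside for more than 1 UMI of a later gene.

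The levels of the 4 genes are given as a description, since they made the rule. Tmem2 (chr19:21778342-21858360, plus strand of GRCm38), which encodes a cell-surface protein that degrades hyaluronan, stood at 1088 CPM (1018 to 1161) and 1202 CPM (1157 to 1248) in members. In Enpp6 cells it was at 1.94 and 7.99 CPM, and in Opalin cells at 8.09 and 25.8 CPM. Its level per cell spread widely, from a lower quartile of 133 and 263 CPM to an upper quartile of 1860 and 1993 CPM, with 19 and 58 members at 0. Rras2 (chr7:114046782-114117781, minus strand), a small GTPase of the Ras family, was at 1081 CPM (1011 to 1154) and 940.5 CPM (901 to 981) and was steadier, with 5 and 17 members at 0. Cnksr3 (chr10:7119063-7212237, minus strand), a scaffold protein of Ras signalling, was at 611 and 540.4 CPM and Fam107b (chr2:3570488-3782142, plus strand) at 449 and 442 CPM.

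Detection of the rule's genes in the neighbouring groups is likewise a description. After each cell was thinned to 2000 UMIs, Tmem2 was detected in 66.7% and 70.5% of members, against 0% (0 of 90 cells, an upper limit of 3.33%) and 1.19% of Enpp6 cells and 1.32% and 2.36% of Opalin cells. In microglia (388 and 702 barcodes), taken as the background cell type, the thinned share was 1.32% and 2.47%. Shares at full depth were 78.7% and 83.3% in members and 1.80% and 3.13% in microglia, whose median depth was 4105 and 2494 UMIs. The Tmem2 shares in Enpp6 and Opalin cells at equal depth were thus under or close to those in microglia. Rras2 was not as scarce in Opalin cells, where its thinned share was 15.2% and 11.5%, against 73.6% and 79.6% of members and 2.91% and 4.55% of microglia.

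Mag, an adhesion protein of the innermost myelin wrap, and Mog, a protein of the outermost myelin surface, also made the rule for members and the gate for Opalin cells, and their levels are a description. Mag was at 3857 and 3585 CPM in members and 5894 and 5559 CPM in Opalin cells. Mog was at 689 and 724 CPM in members and 4146 and 3059 CPM in Opalin cells, and 14 and 57 members held no Mog UMI at all. Enpp6, a choline phosphodiesterase used as the marker of newly formed oligodendrocytes, was not part of the rule for members but chose the Enpp6 cells, so its level there is set by the gate. It was detected in 80 of 89 and 305 of 347 members, at 719.9 and 549 CPM, between 814 and 1070 CPM in Enpp6 cells and 59.5 and 41.4 CPM in Opalin cells. At 2000 UMIs per cell an Enpp6 UMI was found in 65.5% and 58.6% of members, 82.2% and 94.1% of Enpp6 cells, 10.6% and 8.38% of Opalin cells and 2.65% and 3.61% of microglia.

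**Figure D1:**
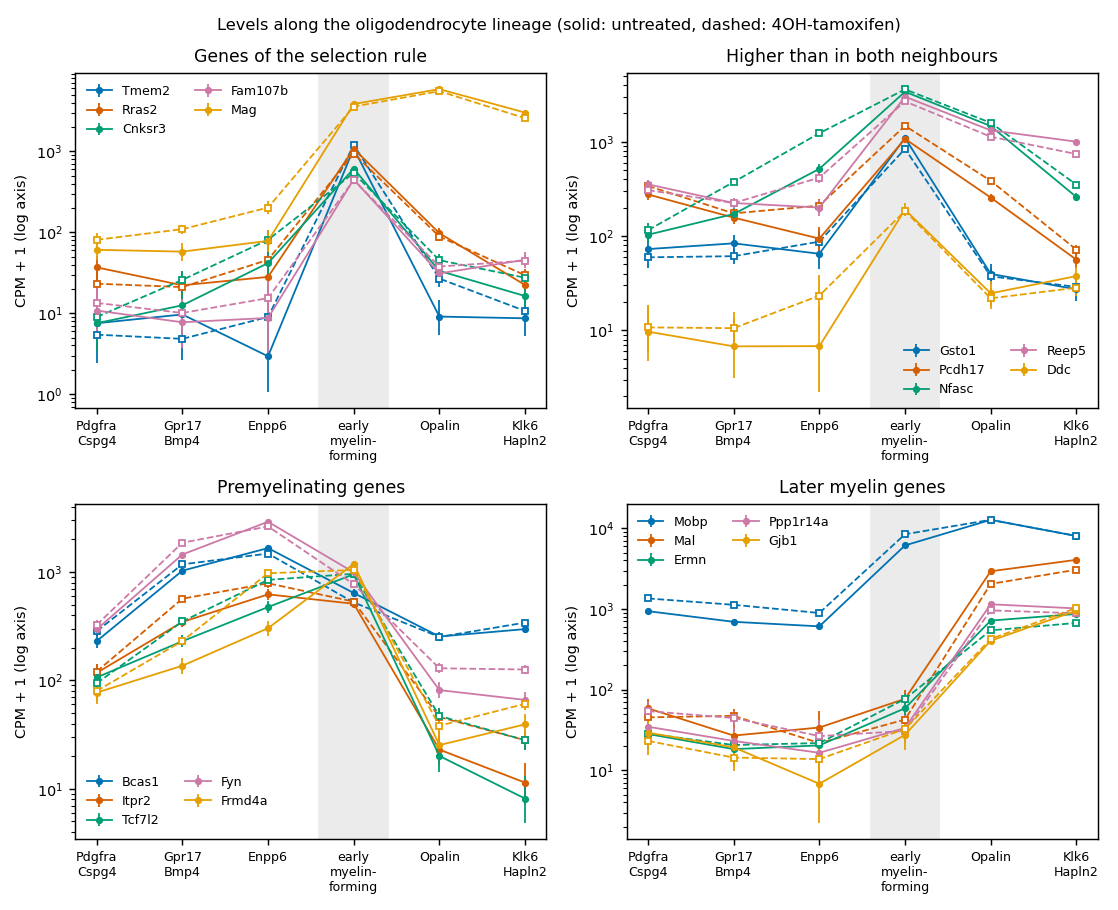
Level of 20 genes in CPM + 1 (log axis) in 6 groups of the oligodendrocyte lineage, ordered from precursors on the left to mature cells on the right, with solid lines and filled circles for the untreated library, dashed lines and open squares for the 4OH-tamoxifen library, and bars for exact 95% Poisson intervals. The shaded column holds the early myelin-forming cells, where Tmem2 and Rras2 stand near 1000 CPM, Nfasc and Gsto1 are at their highest, Tcf7l2 and Itpr2 are still high and Mal and Ppp1r14a are far below their Opalin-cell level.

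The neighbouring groups in the lineage were taken from the same libraries. Enpp6 cells (91 and 178) had at least 3 Enpp6 UMIs and at most 2 UMIs of Mog and Mag, and Opalin cells (151 and 383) had at least 3 Opalin UMIs and at least 3 of Mog and Mag. A gene was counted as higher or lower in members when the ratio of (CPM + 10) was at least 2-fold in the same direction in both libraries, among genes with at least 20 CPM in either group, and the genes of the gates were left out. Against Enpp6 cells 402 of 6243 genes were higher (6.44%) and 427 were lower (6.84%). Against Opalin cells 319 of 5639 genes were higher (5.66%) and 195 were lower (3.46%). A gene that reached the minimum level only in the group where it was high could be called in 1 direction only. Members were under the minimum in at least 1 library for 246 of the 427 and 105 of the 195 lower genes, and the other group for 212 of the 402 and 155 of the 319 higher genes. No gene passed 2-fold in opposite directions in the 2 libraries in either comparison. The median log2 ratio of all genes counted was -0.20 against Enpp6 cells and 0.19 against Opalin cells, and counts of lists are read beside these values. The limit set by the minimum level holds for the list counts too.

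The structural genes of myelin showed the intermediate position of the members most plainly. Of 29 such genes counted against Enpp6 cells 13 were higher and 3 lower, with a median log2 ratio of 1.05. Of 33 counted against Opalin cells 0 were higher and 17 lower, with a median of -1.21. Members were under the minimum level in at least 1 library for 5 of these 17 and for 1 of the 3. Enpp6 cells were under it for 2 of the 13. Cldn11, the claudin of the myelin tight junction, was 13.8-fold and 7.76-fold above Enpp6 cells, at 8024 and 5793 CPM, and stood near its level in Opalin cells (8763 and 6128 CPM).

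Other myelin genes were far below their Opalin-cell level. Mal, a raft protein of compact myelin, was at 76 and 41.6 CPM in members against 2935 and 2045 CPM in Opalin cells, a difference of 38.6-fold (30.1 to 50.4) and 49.1-fold (40.1 to 60.8). In Enpp6 cells it was at 32.9 and 20.8 CPM. Of the 63 Mal UMIs of untreated members 44 were in the 5 cells with a 4-gene sum of exactly 4, and without the cells at this edge, left out after seeing the data, members were at 23.9 and 37.4 CPM, below Opalin cells 123-fold (78.6 to 204) and 54.6-fold (43.7 to 69.2). Microglia held 96.6 and 251 CPM of Mal, and the members' Mal was under that level in both libraries. Ppp1r14a, a phosphatase inhibitor, was at 32.6 and 29.8 CPM in members and 1143 and 960.1 CPM in Opalin cells. Without the edge cells its level in untreated members was 16.3 CPM, and in Enpp6 cells it was at 15.5 and 25.6 CPM. Aspa, the enzyme that breaks down N-acetylaspartate, was at 8.44 and 4.82 CPM and 222 and 159.9 CPM, and Gjb1, the connexin that links myelin layers, at 26.5 and 31.6 CPM and 404 and 425 CPM, with 5.81 and 12.8 CPM in Enpp6 cells. Ermn, a cytoskeletal protein of the outer myelin loop, had begun to separate from Enpp6 cells, at 19.4 and 20.8 CPM there, 57.9 and 75.8 CPM in members and 717 and 542 CPM in Opalin cells. Omg, a glycoprotein that binds the Nogo receptor, was lower in members than on either side, at 20.5 and 15.8 CPM against 93 and 44.7 CPM in Enpp6 cells and 297 and 246 CPM in Opalin cells.

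Mbp, the adhesive protein of compact myelin, had its highest level of the 6 groups in members, at 26103 and 28265 CPM, against 10298 and 14470 CPM in Enpp6 cells and 19377 and 18611 CPM in Opalin cells. It was not counted as higher in either comparison, because its ratios were 2.54-fold (2.46 to 2.61) and 1.95-fold (1.91 to 2.0) against Enpp6 cells and 1.35-fold (1.32 to 1.37) and 1.52-fold (1.5 to 1.54) against Opalin cells. Microglia held 9395 and 13211 CPM of Mbp, and the part of RNA from other cells in these values was not tested. Mobp, another protein of compact myelin, was 10.1-fold (9.01 to 11.3) and 9.48-fold (8.71 to 10.3) above Enpp6 cells and below Opalin cells at 6142 and 8449 CPM against 12742 and 12749 CPM. Microglia held 878 and 1849 CPM of Mobp.

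Many cholesterol synthesis genes were higher in members than in Enpp6 cells. Of 23 genes of cholesterol synthesis 12 were higher than in Enpp6 cells and 0 lower, with a median log2 ratio of 1.25, and against Opalin cells 1 was higher and 0 lower, with a median of 0.21. Hmgcs1, which makes the precursor of mevalonate, was at 324 and 399 CPM in Enpp6 cells, 1193 and 1277 CPM in members and 1707 and 1838 CPM in Opalin cells. Idi1, an isomerase of the isoprenoid steps, differed by 4.15-fold (3.07 to 5.7) and 3.39-fold (2.57 to 4.57) from Enpp6 cells. Acat2, a thiolase of the first step, was the gene higher than on both sides, at 367 and 312 CPM against 128 and 137 CPM and 146 and 131 CPM.

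Of the sphingolipid and fatty acid genes 8 of 26 were higher than in Enpp6 cells and 1 lower, and 1 of 27 was higher than in Opalin cells and 3 lower. Ugt8a, the galactosyltransferase that makes the galactolipids of myelin, was at 416 and 511 CPM in Enpp6 cells, 1600 and 1266 CPM in members and 2638 and 1588 CPM in Opalin cells. Elovl7, a fatty acid elongase, was at 605 and 505 CPM in members and 4.88-fold (3.76 to 6.44) and 2.95-fold (2.42 to 3.64) above Enpp6 cells. Cers2, the ceramide synthase for very long chains, was still 2.77-fold (2.43 to 3.16) and 2.29-fold (2.09 to 2.5) below Opalin cells.

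**Figure D2:**
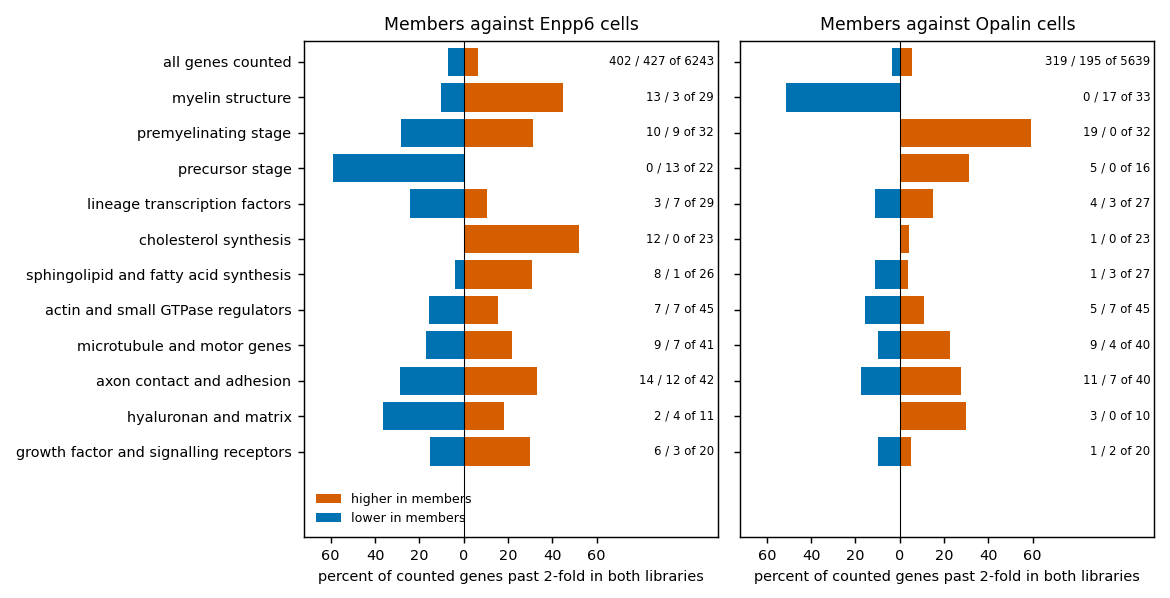
Percent of the counted genes of 11 lists, and of all genes counted, that were at least 2-fold higher (orange, right) or lower (blue, left) in members in both libraries, against Enpp6 cells on the left and Opalin cells on the right, with the numbers higher, lower and counted printed in each row. Cholesterol synthesis is higher in 12 of 23 genes against Enpp6 cells and in 1 of 23 against Opalin cells, and myelin structure turns from 13 higher of 29 to 17 lower of 33.

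Premyelinating genes were largely above their Opalin-cell level, and some were already below their Enpp6-cell level. Against Opalin cells 19 of 32 were higher and 0 lower, with a median log2 ratio of 1.56. Against Enpp6 cells 10 were higher and 9 lower, with a median of 0.52. Opalin cells were under the minimum level in at least 1 library for 6 of the 19. Enpp6 cells were under it for 3 of the 10, and members for 0 of the 9. The list was chosen with earlier results of these data known. Tcf7l2, the transcription factor of Wnt signalling that marks differentiating oligodendrocytes, was at 474 and 847 CPM in Enpp6 cells, 953 and 962 CPM in members and 19.1 and 46 CPM in Opalin cells, a ratio of 49.9-fold (35.3 to 73.1) and 20.9-fold (17.5 to 25.2) to the latter. Itpr2, a calcium release channel of the endoplasmic reticulum, was at 509 and 532 CPM in members and 22 and 44.9 CPM in Opalin cells. Frmd4a, a scaffold of epithelial polarity, was at 1188 and 1045 CPM against 24.3 and 37.1 CPM, and Tns3, a tensin of focal adhesions, was 18.4-fold (14.3 to 23.9) and 9.77-fold (8.47 to 11.3) above Opalin cells.

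Fyn, the Src-family kinase that acts downstream of axonal contact, was at 2913 and 2636 CPM in Enpp6 cells, 992 and 772 CPM in members and 80.3 and 128 CPM in Opalin cells, and so lay between the 2. Bcas1, a marker of the premyelinating cell, followed the same order at 1664 and 1481 CPM, 640.3 and 523 CPM and 253 and 251 CPM. Neu4, a sialidase of early cells, was already low at 35 and 23.2 CPM against 389 and 294 CPM in Enpp6 cells. Cd9, a tetraspanin, was at 464 and 262 CPM in members and 3475 and 1749 CPM in Enpp6 cells, and stood near its Opalin-cell level (473 and 212 CPM). Both libraries thus had high Tcf7l2 beside low Neu4 and Cd9 in members.

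Many precursor genes were lower than in Enpp6 cells. Of 22 counted against Enpp6 cells 0 were higher and 13 were lower, with a median log2 ratio of -1.36, and 6 of the 13 reached the minimum level only in Enpp6 cells. Against Opalin cells 5 of 16 were higher and 0 lower. Ptprz1, a receptor phosphatase of precursors, was at 554 and 446 CPM in Enpp6 cells and 63.9 and 72.3 CPM in members. C1ql1, a secreted synaptic organizer, was at 432 and 279.6 CPM and 26.5 and 33.8 CPM, and Vcan, the proteoglycan versican, at 327 and 316 CPM and 37.4 and 46.9 CPM. Tnr, the matrix glycoprotein tenascin-R, and Bcan, the proteoglycan brevican, were above Opalin cells, with Tnr at 709 and 499 CPM and Bcan at 1191 and 917 CPM in members against 16.2 and 28.3 CPM and 61.3 and 119 CPM in Opalin cells. In Enpp6 cells Tnr was at 1290 and 1387 CPM and Bcan at 439.7 and 655 CPM. Of the proliferation list 4 genes passed the minimum level, namely Pcna, a replication clamp, Hmgb2, a chromatin protein, and the cell cycle inhibitors Cdkn1b and Cdkn1c, and 0 of them were higher or lower in either comparison.

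Of 29 lineage transcription factors counted against Enpp6 cells 3 were higher and 7 lower, and of 27 counted against Opalin cells 4 were higher and 3 lower. Myrf, the membrane-bound factor that switches on myelin genes, was at its highest of the 6 groups in members in both libraries, at 424 and 434 CPM, against 192 and 278 CPM in Enpp6 cells and 287 and 291 CPM in Opalin cells, but did not pass 2-fold on either side in both libraries. Sox10, the factor that oligodendrocytes need at every stage, was at 467 and 490 CPM in members and 471 and 466 CPM in Enpp6 cells, and at 257 and 251 CPM in Opalin cells, under 2-fold apart. Nkx6-2, a homeodomain factor of maturing cells, was intermediate at 46.5 and 92.7 CPM, 176 and 249.8 CPM and 596 and 541 CPM. Nkx2-2, a homeodomain factor of the onset of differentiation, was at 378 and 278 CPM in Enpp6 cells and 20.5 and 26.3 CPM in members, and Sox6, a repressor of differentiation, at 306 and 273 CPM and 26.5 and 29.8 CPM. Tcf4, a partner of the Olig factors, was lower than on both sides, at 138 and 178 CPM against 726 and 704 CPM and 349 and 403 CPM.

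Further genes with the largest ratios in each comparison are given here. Against Enpp6 cells, Tmem125, a membrane protein, was at 1.94 and 9.59 CPM there and 418 and 472 CPM in members, and Ninj1, an adhesion protein that also ruptures the membrane of dying cells, at 17.4 and 17.6 CPM and 638 and 628 CPM. The transcription factors Onecut2 and Creb5 were at 152 and 196 CPM and 139 and 159.5 CPM in members against 1.94 and 3.19 CPM and 0 and 3.19 CPM. Efnb3, the ligand ephrin-B3, was at 309.9 and 381 CPM against 11.6 and 20.8 CPM, and Cldn14, a claudin, at 197 and 195 CPM against 7.75 and 3.19 CPM. Sytl2, a synaptotagmin-like protein of vesicle transport, was at 113 and 149 CPM against 0 and 4.79 CPM, and Gm15440 at 1073 and 963 CPM against 44.5 and 78.3 CPM. These genes were picked by their ratios to Enpp6 cells in both libraries, so their low level there is a description.

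Among the genes lower than in Enpp6 cells, Epcam, an epithelial adhesion molecule, was at 6.03 and 6.14 CPM in members against 209 and 153 CPM, and Gp1bb, a platelet glycoprotein chain, at 6.03 and 14.5 CPM against 234 and 220.4 CPM. G0s2, an inhibitor of triglyceride breakdown, was at 4.82 and 8.33 CPM against 136 and 123 CPM, Traf4, a signalling adaptor, at 49.4 and 34.6 CPM against 418 and 302 CPM, and Arhgap24, a GTPase-activating protein, at 2.41 and 5.26 CPM against 134 and 95.8 CPM. Pxdc1 and 3110035E14Rik were at 15.7 and 19.3 CPM and 31.4 and 37.7 CPM in members and 265 and 188 CPM and 676 and 426 CPM in Enpp6 cells.

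Against Opalin cells, Mpzl1, a relative of myelin protein zero, was at 953 and 541 CPM in members and 28.9 and 31.5 CPM there, and Panx1, a channel protein of the pannexin family, at 160.4 and 122 CPM and 5.2 and 3.18 CPM. In the other direction, Tmod1, which caps actin filaments, was at 2.41 and 4.38 CPM and 146 and 172 CPM, Apod, apolipoprotein D, at 66.3 and 50.8 CPM and 1075 and 641 CPM, Car2, a carbonic anhydrase, at 51.9 and 66.6 CPM and 761 and 622 CPM, and Evi2a at 6.03 and 4.82 CPM and 218 and 137 CPM.

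A set of genes was highest in these cells and lower both before and after. Of 5386 genes counted in both comparisons, 83 (1.54%) were higher than in both neighbours, 14 were lower than in both, 27 lay above Enpp6 and below Opalin cells and 34 lay below Enpp6 and above Opalin cells. Against each of the other 5 groups, which add Pdgfra Cspg4 cells (269 and 520, at least 3 UMIs of these genes), Gpr17 Bmp4 cells (247 and 822, at least 4) and Klk6 Hapln2 cells (165 and 497, at least 3 with Mog and Mag), 57 of 7869 genes were higher by 2-fold in both libraries (0.724%) and 7 were lower (0.0890%). Members were the group with the highest level for 14.1% and 13.3% of these genes. Because members were chosen by 4 genes of this pattern, the count of such genes is a description of the group.

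Nfasc (chr1:132564690-132741797, minus strand), the adhesion molecule neurofascin whose glial form joins the myelin loops to the axon at the paranode, was among the most abundant of them. It was at 515 and 1230 CPM in Enpp6 cells, 3391 CPM (3267 to 3519) and 3595 CPM (3518 to 3674) in members, 1465 and 1587 CPM in Opalin cells and 259 and 350.2 CPM in Klk6 Hapln2 cells. Per cell its median was 3515 and 3503 CPM in members, with 0 members at 0, and the lower quartile of members (2429 and 2795 CPM) lay above the upper quartile of Opalin cells (1769 and 2292 CPM). Sirt2, a deacetylase of the myelin cytoskeleton, was also at its highest in members at 5775 and 4757 CPM, with ratios under 2-fold to Enpp6 cells (1.54-fold (1.46 to 1.62) and 1.33-fold (1.27 to 1.4)).

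Gsto1, a glutathione transferase, stood out by its narrow pattern, at 1096 and 841 CPM in members against 63.9 and 86.3 CPM in Enpp6 cells and 38.7 and 36.4 CPM in Opalin cells, ratios of 17.1-fold (12.1 to 25.1) and 9.75-fold (7.44 to 13) and 28.3-fold (22.1 to 36.8) and 23.1-fold (18.9 to 28.4). At 2000 UMIs per cell it was detected in 65.5% and 56.9% of members, 5.96% and 7.33% of Opalin cells and 11.4% and 13.5% of microglia. Idh1, the cytosolic isocitrate dehydrogenase that makes NADPH, was at 683 and 552 CPM against 129.8 and 203 CPM and 113 and 110.4 CPM. Lrrc16a, a regulator of actin capping protein, was at 193 and 236 CPM against 11.6 and 35.1 CPM and 5.78 and 13.8 CPM. Kif19a, a kinesin, was 4.41-fold (2.84 to 7.16) and 2.2-fold (1.64 to 3.0) above Enpp6 cells and 3.91-fold (3.0 to 5.13) and 3.93-fold (3.21 to 4.83) above Opalin cells.

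Some of the genes with this pattern were named after their values had been seen. Pcdh17, a protocadherin, was at 1071 and 1474 CPM in members, 93 and 209 CPM in Enpp6 cells and 255 and 385 CPM in Opalin cells. Reep5, which shapes the tubules of the endoplasmic reticulum, was at 3002 and 2679 CPM, 199.5 and 415 CPM and 1320 and 1130 CPM. Ddc, the decarboxylase of dopamine and serotonin synthesis, was at 189 and 184 CPM, 5.81 and 22.4 CPM and 23.7 and 20.9 CPM. Dct, a tautomerase of melanin synthesis, was at 53.1 and 39.9 CPM in members, with 0 UMIs in untreated Opalin cells and 0.708 CPM in those of the 4OH-tamoxifen library. Elavl3, an RNA-binding protein used as a neuron marker, had its highest level of the lineage groups in members, at 1159 and 1356 CPM against 186 and 363 CPM and 708 and 769 CPM, but was under 2-fold above Opalin cells, and at equal depth was detected in 85.1% and 90.1% of members and 5.29% and 15.6% of microglia.

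**Figure D3:**
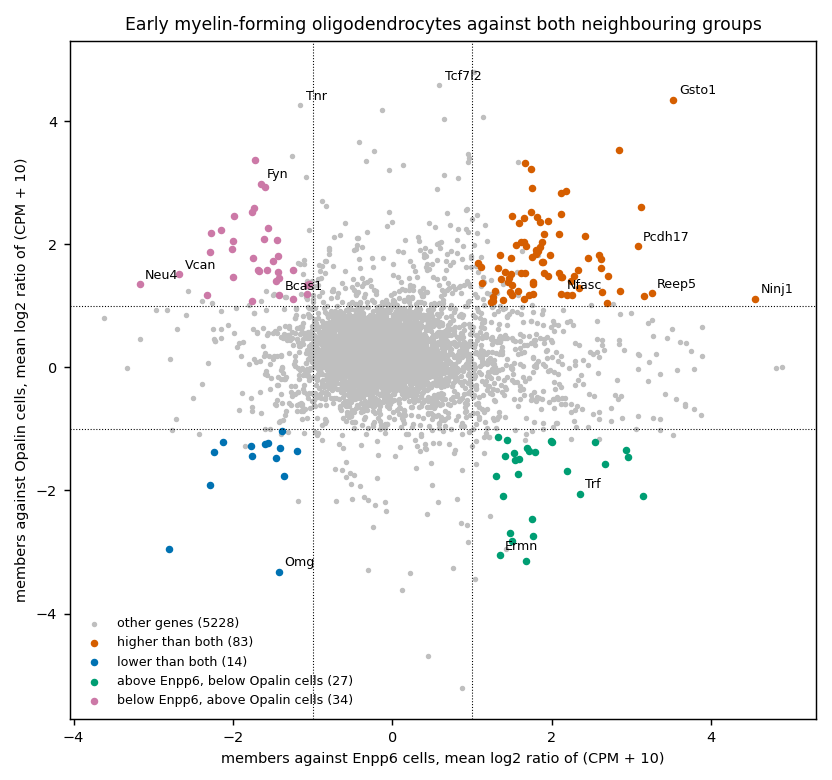
Each point is a gene counted in both comparisons, placed by its mean log2 ratio of (CPM + 10) over the 2 libraries in members against Enpp6 cells (x axis) and against Opalin cells (y axis), with dotted lines at 2-fold. Colours mark genes past 2-fold in both libraries, 83 higher than both groups, 14 lower than both, 27 above Enpp6 and below Opalin cells and 34 the reverse, and Gsto1 and Pcdh17 stand at the upper right.

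Genes of axon contact and adhesion included many that differed on both sides. Of 42 counted against Enpp6 cells 14 were higher and 12 lower, and of 40 counted against Opalin cells 11 were higher and 7 lower. Sema4d, a transmembrane semaphorin that signals through plexin B1, was at 46.5 and 137 CPM in Enpp6 cells, 410 and 398 CPM in members and 50.9 and 43.2 CPM in Opalin cells. Sema6a, a semaphorin of oligodendrocyte differentiation, was 19.5-fold (13.7 to 28.9) and 9.36-fold (7.55 to 11.8) above Enpp6 cells and near Opalin cells at 1173 and 1271 CPM. Ank3, which encodes ankyrin-G, was at 110.4 and 152 CPM, 608 and 766 CPM and 1079 and 1045 CPM. Cntn1, the adhesion molecule contactin-1, was higher than on both sides at 727 and 740.2 CPM, against 201 and 233 CPM and 311 and 324 CPM. Ncam1, the neural cell adhesion molecule, and Opcml, a GPI-anchored adhesion molecule, were lower than in Enpp6 cells, with Ncam1 at 116 and 146 CPM against 869.7 and 706 CPM and Opcml at 385 and 263 CPM against 1145 and 1013 CPM. Opcml still exceeded its Opalin-cell level of 19.1 and 24.4 CPM.

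Of 45 actin and small GTPase regulators 7 were higher and 7 lower than in Enpp6 cells, and 5 were higher and 7 lower than in Opalin cells. Arpc1b, a subunit of the Arp2/3 complex that branches actin, was at 112 and 286 CPM in Enpp6 cells, 1843 and 1761 CPM in members and 1168 and 942 CPM in Opalin cells. Tmsb4x, thymosin beta 4, which holds actin monomers, was lower than on both sides, at 1636 and 1746 CPM against 6452 and 3875 CPM and 4090 and 3837 CPM. Marcks, a membrane-bound actin crosslinker, was at 3911 and 4383 CPM in members and 195 and 292 CPM in Opalin cells, and Rnd2, a small GTPase, at 1293 and 1139 CPM and 52 and 80.3 CPM. Gsn, the actin-severing protein gelsolin, was at 56.2 and 63.9 CPM, 219.5 and 209 CPM and 2243 and 1722 CPM from Enpp6 cells to Opalin cells.

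Of the microtubule and motor genes 9 of 41 were higher and 7 lower than in Enpp6 cells, and 9 of 40 were higher and 4 lower than in Opalin cells. Tppp, which nucleates microtubules in myelin sheaths, was at 23.2 and 76.7 CPM in Enpp6 cells, 628 and 728 CPM in members and 517 and 508 CPM in Opalin cells. Tubb2b, a beta tubulin, was at 1751 and 1311 CPM, 529 and 366 CPM and 65.3 and 71.5 CPM, and Tuba1a, an alpha tubulin, at 8505 and 5364 CPM, 6191 and 3782 CPM and 1391 and 1174 CPM. Stmn4 and Stmn1, which destabilize microtubules, were both far below Opalin cells, with Stmn1 at 51.9 and 47.8 CPM against 659 and 502 CPM. Sept4, a septin of the mature sheath, was intermediate at 31 and 73.5 CPM, 430.5 and 456 CPM and 1269 and 1205 CPM.

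Many matrix and receptor genes were under the minimum level. Of 11 hyaluronan and matrix genes 2 were higher and 4 lower than in Enpp6 cells. Of 10 counted against Opalin cells 3 were higher and 0 lower. The group with the lower level was under the minimum in at least 1 library for 1 of the 2, 2 of the 4 and 2 of the 3. Adamts4, a protease that cleaves proteoglycans, was at 17.4 and 75.1 CPM in Enpp6 cells, 419.7 and 525 CPM in members and 340.5 and 476 CPM in Opalin cells, and Timp4, a protease inhibitor, at 720.5 and 516 CPM, 95.3 and 93.3 CPM and 26 and 43.9 CPM. Of 8 genes of iron handling 1 was higher than in Enpp6 cells and 0 lower, and 0 were higher and 3 lower than in Opalin cells. Trf, the iron carrier transferrin, was at 46.5 and 76.7 CPM, 403 and 298 CPM and 1794 and 1209 CPM, and Fth1, the heavy chain of ferritin, at 2080 and 2599 CPM, 2138 and 2264 CPM and 11734 and 10660 CPM. Of 20 receptors 6 were higher and 3 lower than in Enpp6 cells, and 1 was higher and 2 lower than in Opalin cells. The group with the lower level was under the minimum in at least 1 library for 3 of the 6 and 2 of the 3. Against Opalin cells this held for 0 of the 1 and 2 of the 2. Lpar1 and S1pr5, receptors of lysophospholipids, were at 311 and 342 CPM and 152 and 129 CPM in members against 25.2 and 81.5 CPM and 5.81 and 6.39 CPM in Enpp6 cells. Erbb3, a neuregulin receptor, was at 7.24 and 20.6 CPM in members and 142 and 140.1 CPM in Opalin cells, and Tnfrsf21, the death receptor DR6, was higher than on both sides at 480 and 453 CPM.

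The windows of 300 bases around the annotated starts of the 4 genes of the rule and of Tcf7l2, Nfasc, Gsto1 and Pcdh17, genes that were higher in members than in Opalin cells, were read for 4 sets of letters. The windows are from RefSeq (GRCm38.p6), each printed on the gene's strand, and a window is shown where it held one of the motifs searched, namely CTGGCAC (named for MYRF), ACAAAG (SOX), CAGCTG (an E-box) and ATCAAAG (TCF/LEF, whose last letters CAAAG are also those of the SOX motif), on either strand. Capitals mark the matched letters.
Cnksr3 (chr10:7212188-7212487, minus strand): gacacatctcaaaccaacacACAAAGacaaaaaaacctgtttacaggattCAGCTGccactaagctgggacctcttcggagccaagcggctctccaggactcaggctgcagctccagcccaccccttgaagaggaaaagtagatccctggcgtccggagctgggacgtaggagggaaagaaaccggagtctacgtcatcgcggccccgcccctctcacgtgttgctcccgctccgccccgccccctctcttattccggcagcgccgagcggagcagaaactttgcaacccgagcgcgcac
Tcf7l2 (chr19:55895071-55895370, plus strand): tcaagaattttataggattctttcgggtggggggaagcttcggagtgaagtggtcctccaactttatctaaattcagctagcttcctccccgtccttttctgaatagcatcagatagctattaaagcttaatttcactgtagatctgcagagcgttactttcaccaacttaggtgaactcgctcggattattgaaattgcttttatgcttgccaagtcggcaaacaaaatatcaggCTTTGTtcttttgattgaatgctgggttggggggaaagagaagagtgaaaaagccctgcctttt
Nfasc (chr1:132642809-132643108, minus strand): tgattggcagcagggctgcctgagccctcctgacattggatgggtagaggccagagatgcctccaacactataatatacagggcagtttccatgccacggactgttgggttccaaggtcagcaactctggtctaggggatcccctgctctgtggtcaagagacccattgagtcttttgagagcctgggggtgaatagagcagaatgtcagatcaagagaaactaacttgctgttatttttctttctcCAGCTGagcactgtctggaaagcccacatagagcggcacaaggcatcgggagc
The Cnksr3 window held both the SOX and the E-box letters, the second Tcf7l2 start the SOX letters on the other strand, and the Nfasc start at chr1:132642809-132643108 the E-box letters. The windows of Rras2, Fam107b, Gsto1 and Pcdh17 and the first windows of Tcf7l2 and Nfasc held none of the 4. No entry was matched to the name Tmem2, so its window was not read. Over all genes counted, 5233 of 6496 matched an entry, with 6808 windows. The E-box letters were in 14.4% of these, 21.5% of windows of genes higher than in Enpp6 cells and 17.4% of genes higher than in Opalin cells. The SOX letters were in 13.0%, 15.5% and 14.4%, the MYRF letters in 4.67%, 6.16% and 8.42% and the TCF/LEF letters in 2.51%, 2.97% and 3.26%. A match describes letters, not a bound site.

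The members were not uniform. With 578 genes of at least 0.5 UMIs per cell after thinning to 2000 UMIs, the ratio of variance to mean had a median of 1.19 and 1.16, where counting error alone gives 1. Mobp reached 8.64 and 10.2, and Pdcd4, an inhibitor of translation, reached 5.73 and 6.09 at a mean of 1.14 and 0.863 UMIs. Of the 828 Pdcd4 UMIs of members of the 4OH-tamoxifen library 391 were in the 38 cells with a 4-gene sum of exactly 4, and without these its level there was 210 in place of 363 CPM. The abundant RNAs Malat1 and Actb also varied, at 59.1 and 55.9 and at 12 and 15.

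Dividing the members by Enpp6 showed the same split in both libraries. After thinning, 57 and 201 members held an Enpp6 UMI and 30 and 142 did not. At full depth only 9 and 42 members held none, so most of the cells called without Enpp6 here lost it by thinning. Members with Enpp6 were higher in Pdcd4, at 816 and 602 CPM against 100 and 190.1 without, and in Opcml, at 684 and 433 against 167 and 137. Tnr, Fyn, Frmd4a and Tcf7l2 had the same direction, with Fyn at 1140 and 1047 CPM with Enpp6 and 567 and 532 without. Mobp was higher in members without Enpp6, at 8367 and 10507 CPM against 3702 and 5216. Mag and Mog, which made the rule and are given as a description, stood at 6933 and 4342 CPM without Enpp6 and 3167 and 2659 with it for Mag, and at 1100 and 926 against 579 and 470 for Mog. Nfasc differed little, at 3386 and 3428 CPM with Enpp6 and 3767 and 3820 without.

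**Figure D4:**
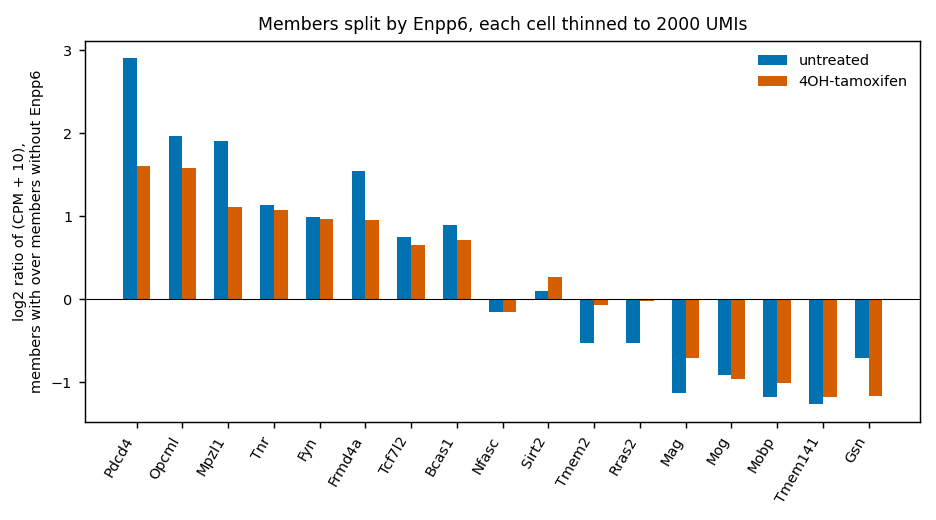
Log2 ratio of (CPM + 10) between members with and members without an Enpp6 UMI, every cell thinned to 2000 UMIs, for 17 genes in the untreated (blue) and 4OH-tamoxifen (orange) libraries. Bars above 0 are genes higher with Enpp6, led by Pdcd4, and bars below 0 are genes higher without it, among them Mag, Mog, Mobp and Tmem141, while Nfasc and Sirt2 stay near 0.

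As a check that used none of the genes of the gates, every member was set against the summed profiles of the 6 groups in the other library over 4456 genes. Of untreated members 72 of 89 (80.9%) were most similar to the early myelin-forming profile, 14 to the Enpp6 profile and 1 each to the Opalin, Klk6 Hapln2 and Gpr17 Bmp4 profiles. Of members of the 4OH-tamoxifen library 303 of 347 (87.3%) were most similar to the early myelin-forming profile, 31 to the Opalin profile and 13 to the Enpp6 profile. The median of the best correlation, across genes, was 0.643 and 0.625. Genes vary together within a cell, so these counts are a description and no test of the label.

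**Figure D5:**
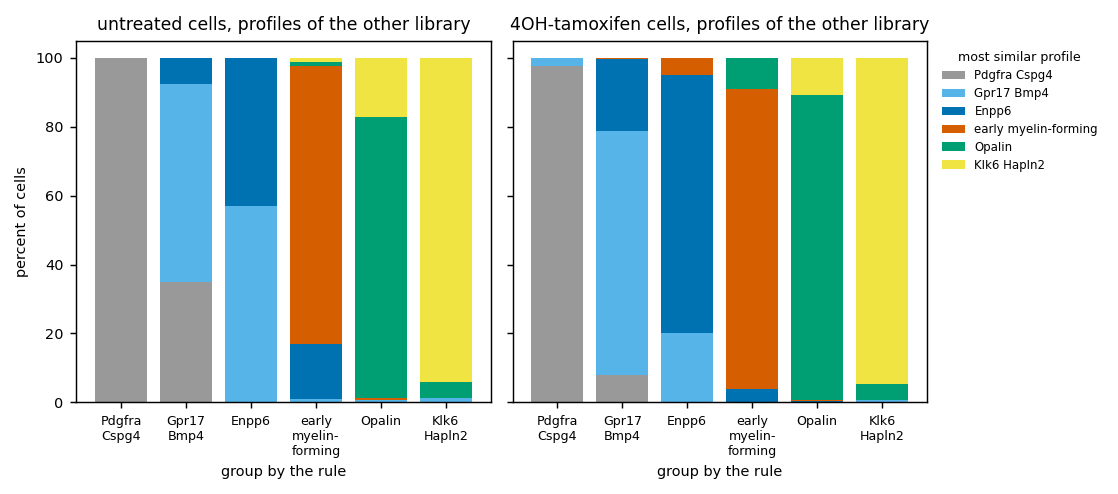
Percent of the cells of each group (x axis) whose profile was most similar, by Pearson correlation of log2(CPM + 10) over 4456 genes without the gate genes, to each of the 6 group profiles of the other library, with untreated cells on the left and 4OH-tamoxifen cells on the right. The orange part is the early myelin-forming profile, which takes 80.9% and 87.3% of the members and few cells of other groups.

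Marker lists of other cell types were summed in members and set beside other groups. The 14 astrocyte markers summed to 1790 and 2215 CPM in members, against 12646 and 14005 in microglia and 1517 and 2031 in Opalin cells, and 42 and 167 members held more than 2 UMIs of Aqp4, Slc1a2, Gja1 and Agt. The microglia markers summed to 104 and 82.8 CPM in members and 24878 and 17088 CPM in microglia. The vascular markers summed to 77.2 and 83.7 CPM. The 16 neuron markers summed to 1451 and 2104 CPM in members, against 567.5 and 1396 CPM in Enpp6 cells, 1001 and 1296 CPM in Opalin cells and 560.7 and 1365 CPM in microglia. In members Elavl3 made up 961 of 1203 and 3093 of 4800 UMIs. Without Elavl3 the sum in untreated members was 292 CPM, the lowest of the 6 lineage groups and microglia (293 to 946.5 CPM in the others), and in the 4OH-tamoxifen library it was 748 CPM, within the range of the others (527.5 to 1882 CPM). Against Enpp6 cells 0 of 12 astrocyte markers were higher and 1 lower, 1 of 8 neuron markers (Elavl3) was higher and 0 lower, and the 1 microglia and 1 vascular marker counted were neither. Against Opalin cells 0 of 11 astrocyte, 0 of 7 neuron and 0 of 1 microglia markers were higher or lower, and the vascular marker counted, Itm2a, was higher at 50.6 and 41.2 CPM against 15.6 and 12.7 CPM.

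Between the members of the 2 libraries 30 of 6003 genes were at least 2-fold higher in the 4OH-tamoxifen library (0.500%) and 14 were lower (0.233%). These counts moved with the processing, to 299 and 192 after thinning, 116 and 54 without members that held more than 2 UMIs of astrocyte genes and 102 and 76 with 1 CPM added. Of the lists, 5 of 9 neuron markers and 3 of 41 microtubule and motor genes were higher, of which Tubb3 and Stmn2 are in both lists and Tppp3 in the latter. Without the 2 members that held more than 100 UMIs of neuron markers, 1 of 7 neuron markers (Stmn2) and 2 of 41 microtubule and motor genes (Stmn2 and Tppp3) were higher. Cdkn1b, a cell cycle inhibitor from the proliferation list, was higher at 24.5 against 6.03 CPM, and 2 of 12 hyaluronan and matrix genes and 1 of 9 dissociation-response genes were lower. No gene counted in the other lists passed 2-fold, and list genes under the minimum level in both libraries were not counted. Tmem2, Rras2, Cnksr3 and Fam107b made the rule in both libraries, and as a description their ratios lay between 0.871 and 1.10. Hist1h1c, a linker histone, was at 50.6 CPM in the untreated library and 192 CPM in the other, a ratio of 3.79 (2.76 to 5.33), and was detected in 25.8% and 46.7% of members. Impdh2, an enzyme of guanine nucleotide synthesis, was at 61.5 and 22.4 CPM. Gpr180, an orphan receptor-like protein, was at 135 and 53.5 CPM, Smpd2, a neutral sphingomyelinase, at 85.6 and 31.1 CPM, and Gadd45a, a stress-induced gene, at 74.8 and 30.2 CPM.

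Several of the other differences rested on few cells. Mgp, matrix Gla protein, was at 59.1 CPM in untreated members and 4.82 CPM in the others, but 22 of the 49 untreated UMIs were in 1 cell, and without it the level was 32.7 CPM. Untreated Opalin cells held more Mgp, at 850.3 and 3.18 CPM, a difference in the same direction whose part in the members' value was not tested. Of the members of the 4OH-tamoxifen library 2 held 243 and 164 UMIs of neuron markers, where the next held 32 and the highest untreated member 42. Without these 2 the count of higher genes was 17 and of lower genes 12. Snhg11, a long noncoding RNA, was at 7.24 CPM in untreated members and 58.7 CPM in the others, or 26.2 CPM without them. Meg3, a long noncoding RNA abundant in neurons, was then at 75.8 against 69.9 CPM, a ratio of 1.08 (0.800 to 1.49), in place of 286 CPM with them, and Atp1b1, a sodium pump subunit, was at 50.1 against 31.4 CPM. Nefl, a neurofilament, was at 205 against 102 CPM without them, a ratio of 2.00 (1.59 to 2.55) that did not pass 2-fold in (CPM + 10). Stmn2, a neuronal stathmin, stayed higher at 63.4 against 21.7 CPM. Neuron markers other than Elavl3 summed to 292 CPM in untreated members and 583 CPM in the remaining members of the 4OH-tamoxifen library. In microglia they summed to 525 and 1236 CPM, a difference in the same direction whose part in the members' values was not tested.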

How the data were processed

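Single cells of the ventral parafacial region were profiled with 10x v2 3′ chemistry in 2 libraries, 1 per condition. The authors demultiplexed reads with bcl2fastq 2.18.0.12 and used Cell Ranger 2.2.0 with the mm10 (GRCm38) reference, and the deposited values are raw counts of UMIs per gene and called barcode, without normalization. Doublets had not been removed from these counts. The libraries held 3767 and 10241 barcodes and 18496942 and 34704167 UMIs.

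Barcodes were filtered and groups cut as stated in the report, UMIs were summed per group and library, and levels were given as CPM with exact Poisson intervals, shares with Clopper-Pearson intervals and ratios with exact conditional intervals (Python 3.11.15, scipy 1.17.1). A gene counted as higher or lower passed 2-fold in (CPM + 10) in both libraries with at least 20 CPM in either group. Scripts were tested on simulated data. Genes named were those of the rule, of the gene lists, and the 10 per direction (5 between libraries) with the largest ratios and at least 50 CPM, with exceptions said in the report, and some of these genes are not reported here. The lists were myelin structure, premyelinating, precursor, transcription factor, cholesterol, sphingolipid and fatty acid, actin, microtubule, axon contact, matrix, iron, receptor, proliferation, dissociation, glucocorticoid and markers of astrocytes, neurons, microglia and vessels. Of the list genes 2 were not in the table. Members and lists were chosen with earlier results of these data known. Coordinates are from GENCODE M21, matched by Ensembl ID for 28339 of 28692 genes. Alternatives were Scrublet doublets left out (scanpy 1.11.5), stricter barcode filters, a higher 4-gene sum, a limit on astrocyte genes, thinning, each cell's own CPM, 1 CPM added and no minimum level.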

Additional observations from a re-analysis of the deposited data

How the results depend on the processing

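Counts against Enpp6 cells (402 higher and 427 lower in members) and Opalin cells (319 and 195) stayed within 1.5 times under every alternative run. Of the named genes, only the 50 picked for the largest ratios were followed under the alternatives, and none of these changed direction. Of 500 values of the 50 genes 489 stayed on their side of 2-fold. The other 11 dropped under it, all of them differences between the libraries. The number of members moved with the rule. It was 336 (6.43% of kept barcodes) in the 4OH-tamoxifen library with at least 1200 genes, 71 (3.36%) and 334 (5.29%) with at most 10% mitochondrial UMIs, 293 (3.24%) in the 4OH-tamoxifen library with a 4-gene sum of at least 6, and 47 (1.41%) and 180 (1.99%) without members that held more than 2 UMIs of astrocyte genes. The counts between libraries (30 higher and 14 lower in the 4OH-tamoxifen library) moved most, to 31 lower with the 4-gene sum of at least 6, 116 and 54 without astrocyte genes, 299 and 192 after thinning, 25 lower with each cell's own CPM, 102 and 76 with 1 CPM added and 53 higher with no minimum level. They were 17 higher without the 2 barcodes rich in neuron markers, an alternative chosen after seeing the data. The cause was not tested, except that thinning leaves fewer UMIs per gene. Meg3 was at a log2 difference of 0.10 without those barcodes. No paired analysis was possible because each condition has 1 library.

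Limits are the single library per condition, the pooling of mice, and gates cut from the counts described. Scrublet marked 0.159% and 5.31% of barcodes. Enpp6 cells were shallower than members (medians of 5673 and 3364 UMIs) and Opalin cells deeper (12676 and 7623).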

Other observations

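Stress and hormone genes in the early myelin-forming cells were described by 2 further lists. Of the dissociation-response genes 0 of 9 were higher and 1 lower than in Enpp6 cells, and 1 of 7 was higher and 0 lower than in Opalin cells. Their sum over 23 genes was 3138 and 2526 CPM in members, 3362 and 2526 CPM in Enpp6 cells and 2357 and 2107 CPM in Opalin cells. Nr4a1, an immediate early gene, was at 1.21 and 2.19 CPM in members and 42.6 and 33.5 CPM in Enpp6 cells, and Klf6, a zinc finger factor, at 90.4 and 82.4 CPM in members and 24.9 and 32.9 CPM in Opalin cells. Fos was at 37.4 CPM in untreated members and 12.7 CPM in the 4OH-tamoxifen library.

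Of the glucocorticoid-response genes 1 of 6 was higher and 1 lower than in Enpp6 cells, and 3 of 8 were higher and 0 lower than in Opalin cells. Ddit4, an inhibitor of mTOR signalling, was at 65.8 and 63.9 CPM in Enpp6 cells and 239 and 256 CPM in members. Sgk1, a kinase induced by corticosteroids, was at 426 and 417 CPM in Enpp6 cells, 166 and 102 CPM in members and 13.3 and 37.1 CPM in Opalin cells. Klf9, a thyroid and corticosteroid hormone target, was at 403 and 408 CPM in members and 50.3 and 92.3 CPM in Opalin cells. Sums of the proliferation list were 216 and 220 CPM in members and 2209 and 2536 CPM in Pdgfra Cspg4 cells.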
